A study of Mus musculus with 10 samples.

Results

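The fatty acid binding proteins are a family of small cytosolic proteins that carry long-chain fatty acids and related lipids inside cells, and 9 mouse genes of the family, Fabp1 to Fabp7, Fabp9 and Fabp12, were followed here in medullary thymic epithelial cells (mTECs) with and without the transcription factor Fezf2. The members were the genes named Fabp with a probe set (a group of short probes against 1 transcript on the array) assigned to that gene alone. Pmp2, which belongs to the same protein family under another name, was not a member and is described with the relatives. They had 16 such probe sets among 45101 on the array, and the 9 genes stood among 14087 genes tested. For the 5 members with several probe sets, the tested one was chosen by its mean signal over all 10 arrays, KO and WT together, so the size of that mean is no finding. The family was taken up with the falls of Fabp2 and Fabp9 already known, so the number of members that fell describes these arrays and is not independent evidence.

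Each member is best known from 1 or a few organs. Fabp1 is the liver and Fabp2 the intestinal form, and Fabp6 binds bile acids in the ileum. Fabp3 is the heart form, Fabp4 the adipocyte form, Fabp5 the epidermal form and Fabp7 the brain form of radial glia, while Fabp9 and Fabp12 are known from the testis. The proteins share a barrel fold with a lipid in its cavity and can hand fatty acids to nuclear receptors of the PPAR group. Mature mTECs transcribe many such organ-typical genes and present their products to developing T cells, which removes or diverts self-reactive clones.

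The 5 Fezf2 KO and 5 WT arrays, named here KO 6 to KO 10 and WT 1 to WT 5 after the titles, were hybridised with RNA of thymic cells sorted as CD45-, EpCAM+ and CD80hi taken at 3 weeks of age from C57BL/6 background mice. The labels do not give the Fezf2 allele, a Cre driver, the sex or whether each array is a separate mouse, so the p-values measure the spread between arrays, which may be technical. Fezf2 itself was 15.04 ± 2.77 in KO and 5476 ± 350.0 in WT cells (SD, n = 5 each), which bears out the labels. Values are linear signal intensities, and array medians lay between 36.5 and 38.0 in KO and between 37.4 and 37.8 in WT. KO 6 and WT 1 stood apart in the 18S rRNA control probe sets, with a geometric mean of 3082 on KO 6 against 595 to 875 on the other KO arrays, and 2731 on WT 1 against 943 to 1362 on the other WT arrays. Results are therefore also given without both arrays.

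Of the 9 members 6 were lower in KO than in WT cells, none was higher and 3 did not pass (limma, adjusted p under 0.05 over all genes). Over all 14087 genes 16.2% were lower and 13.0% higher. The 6 were Fabp1, Fabp2, Fabp3, Fabp7, Fabp9 and Fabp12. In these 6 every KO array lay below every WT array, which held for 12.0% of all genes. Fabp4, Fabp5 and Fabp6 overlapped between the genotypes. The median log2 change of the members was -0.94, beside -0.03 for all genes. Without WT 1 and KO 6 the 6 members still passed, with adjusted p of at most 5.3e-04. All 9 members exceeded the 40th percentile of the array on all 10 arrays, so the filter on low signals removed none. In bulk RNA, fewer cells that transcribe a gene and less RNA per cell cannot be told apart.

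**Figure D1:**
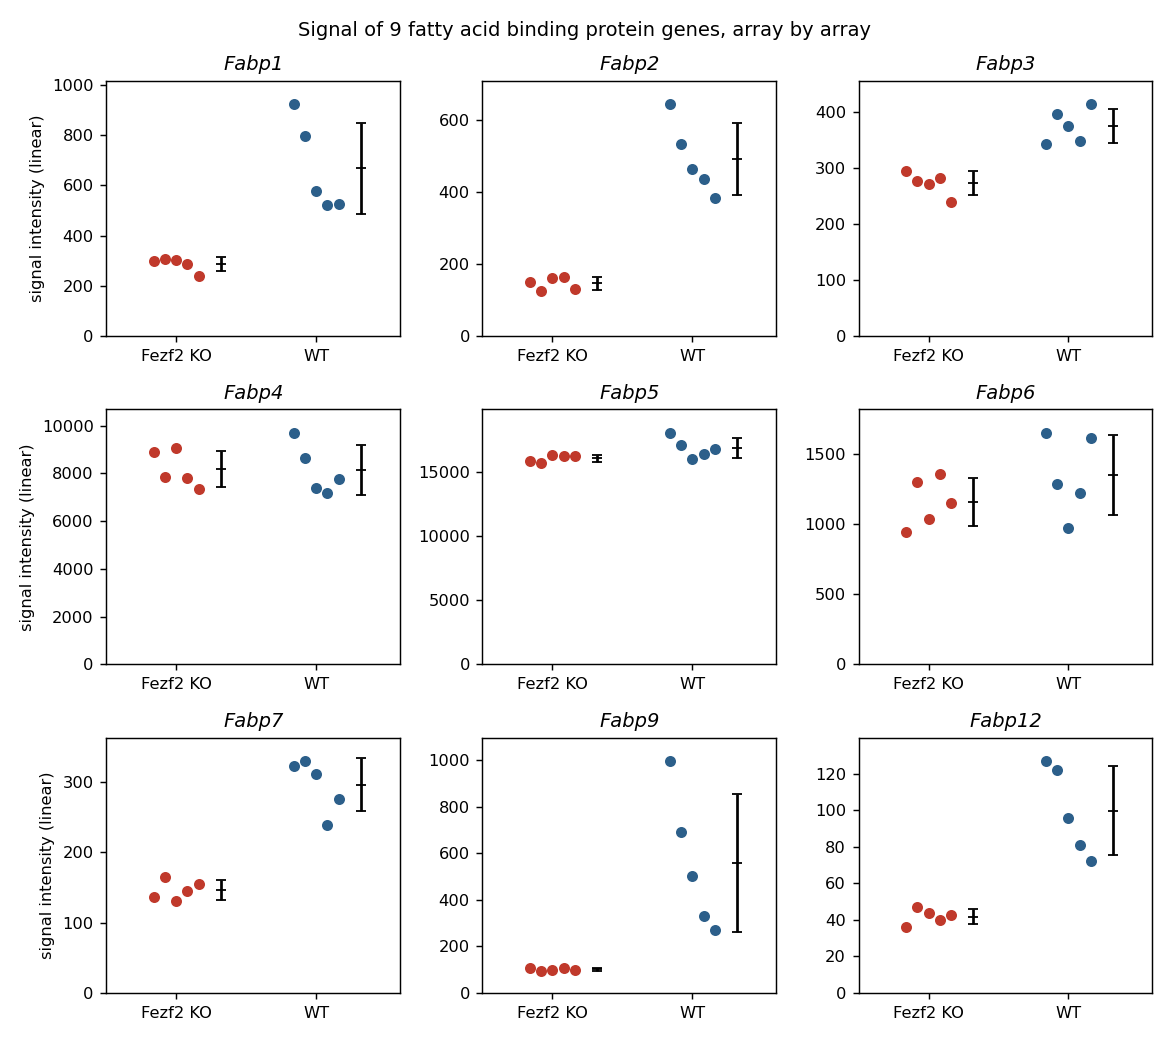
Linear signal intensity (y axis, from 0) of the tested probe set of each of the 9 genes on the 5 Fezf2 KO arrays (red) and the 5 WT arrays (blue), with mean and SD in black beside the points. In 6 panels no red point reaches a blue one, and in those of Fabp4, Fabp5 and Fabp6 the points overlap.

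Among the members of the gut and liver, Fabp2 and Fabp1 fell and Fabp6 did not pass. Fabp2 (probe set 1418438_at), which binds dietary fatty acids in the enterocyte, had signals of 149, 125, 160.0, 164 and 131 on KO 6 to KO 10, against 644, 532, 465, 437 and 384 on WT 1 to WT 5. The highest KO signal was less than the lowest WT signal by more than the range of the KO arrays, and the signal was 3.11-fold lower in KO (log2 change -1.64, SE 0.13, adjusted p = 2.5e-06). Fold changes are on the scale of log2(signal + 16), which understates the change of low signals. Fabp1 (1448764_a_at), which carries fatty acids and other ligands in hepatocytes and enterocytes, had 299, 309, 304, 286 and 238 on the KO arrays, against 924, 796, 577, 521 and 525 on the WT arrays. It was 2.21-fold lower in KO (log2 change -1.14, SE 0.15, adjusted p = 1.6e-04), and its second probe set, with 120 to 156 in KO and 281 to 511 in WT, gave a log2 change of -1.38. Both probe sets thus separated the genotypes fully. Fabp6 (1450682_at), the ileal bile acid carrier, had 943, 1299, 1036, 1352 and 1150.4 in KO, against 1648, 1282, 970.5, 1222 and 1611 in WT. The groups interleaved, and the log2 change of -0.20 had a 95% interval from -0.52 to 0.11 (adjusted p = 0.32). Without WT 1 and KO 6 it was -0.06 (adjusted p = 0.79). The interval of Fabp6 lies apart from those of Fabp2 (-1.91 to -1.36) and Fabp1 (-1.47 to -0.81).

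The promoters of these 3 genes are shown because the genes share their organ and differ in their change. RefSeq windows (GRCm38.p6) from 250 bases before to 50 bases after the annotated start matched 5 of the 9 members. Capitals mark, on either strand, any match to 4 motifs. TATAAA is the core promoter box that sets the start of transcription. AGGTCA is the repeat unit read by receptors of the PPAR, RXR and HNF4 type. GTTAAT is part of the HNF1 site, and the last motif, GATAAG, is read by the GATA factors of the gut. No matches overlapped. The windows lie at chr6:71199629-71199928 (plus strand) for Fabp1, chr3:122894822-122895121 (plus strand) for Fabp2 and chr11:43601513-43601812 (minus strand) for Fabp6.
Fabp1: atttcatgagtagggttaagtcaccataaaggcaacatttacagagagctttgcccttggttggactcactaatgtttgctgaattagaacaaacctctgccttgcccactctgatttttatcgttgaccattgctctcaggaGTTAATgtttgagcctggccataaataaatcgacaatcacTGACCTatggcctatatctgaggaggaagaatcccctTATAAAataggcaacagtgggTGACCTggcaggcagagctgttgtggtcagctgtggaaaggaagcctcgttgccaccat
Fabp2: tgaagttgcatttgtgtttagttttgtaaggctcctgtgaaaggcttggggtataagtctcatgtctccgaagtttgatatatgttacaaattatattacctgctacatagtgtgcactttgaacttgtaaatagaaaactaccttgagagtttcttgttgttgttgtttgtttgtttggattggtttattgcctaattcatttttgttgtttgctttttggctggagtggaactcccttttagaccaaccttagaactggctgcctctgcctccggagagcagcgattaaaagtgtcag
Fabp6: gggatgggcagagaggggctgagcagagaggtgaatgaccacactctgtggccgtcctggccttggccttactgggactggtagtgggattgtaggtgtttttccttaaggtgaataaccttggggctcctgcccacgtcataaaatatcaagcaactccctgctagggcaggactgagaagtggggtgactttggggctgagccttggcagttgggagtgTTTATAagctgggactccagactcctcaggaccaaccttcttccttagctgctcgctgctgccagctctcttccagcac
TATAAA was found in Fabp1, 30 bases before the start, and on the opposite strand in Fabp6, 29 bases before it. Fabp1 also held AGGTCA at 67 and 9 bases before the start, both on the opposite strand, and GTTAAT at 107 bases before it. None of the 4 motifs was in the Fabp2 window. Over all 32851 windows of the same length TATAAA stood in 13.6%, AGGTCA in 16.3%, GTTAAT in 7.1% and GATAAG in 7.4%. These matches describe letters and say nothing of binding.

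Genes with which Fabp1 and Fabp2 work in fat absorption were mostly lower too. Of 13 listed genes 12 were tested, of which 8 were lower, 1 higher and 3 not past the threshold, with a median log2 change of -0.78. The 4 with the smallest adjusted p were Apoa4, Cideb, Apoc3 and Apoa1. Apoa4, an apolipoprotein of the chylomicrons that leave the gut, averaged 833 ± 129 in KO and 2345 ± 365 in WT cells (log2 change -1.47, adjusted p = 5.7e-06). Apoa1, the main protein of high-density lipoprotein, had a log2 change of -1.03 (adjusted p = 2.2e-05). Apoc3, an apolipoprotein of triglyceride-rich particles, averaged 106 ± 21.9 in KO and 579 ± 215 in WT cells (log2 change -2.22, adjusted p = 2.0e-05). Mttp, which loads lipid onto apolipoprotein B, averaged 122 ± 5.22 in KO and 265 ± 52.7 in WT cells (log2 change -1.01, adjusted p = 3.4e-05). Cideb, a lipid droplet protein of liver and gut, had a log2 change of -1.03 and Mogat2, which rebuilds triglycerides in the enterocyte, one of -0.51. The gene that rose was Scarb1, the receptor of high-density lipoprotein, with 306 ± 50.6 in KO and 165 ± 38.0 in WT cells (log2 change 0.85, adjusted p = 9.8e-04). The triglyceride synthases Dgat1 and Dgat2 had log2 changes of -0.10 and -0.24, which did not pass. Every named call of this list held in each of the 10 fits that left out 1 array.

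Around Fabp6, 5 of 8 genes of ileal bile acid handling were tested, of which 3 were lower and 2 did not pass, with a median log2 change of -0.33. Slc51b, a subunit of the basolateral bile acid exporter, averaged 35.1 ± 6.81 in KO and 66.7 ± 14.2 in WT cells (log2 change -0.69, adjusted p = 0.0011). Nr0b2, the repressor SHP, changed by -0.35 on the log2 scale (adjusted p = 0.0168). Abcc3, an export pump, changed by -0.25 (adjusted p = 0.0317). This call did not hold in 6 of the 10 fits without 1 array, nor without WT 1 and KO 6 (adjusted p = 0.0583). The ileal uptake carrier Slc10a2 and the bile acid receptor Nr1h4 were below the signal filter.

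The pair known from the testis fell, Fabp9 furthest of the 9 members. Fabp9 (1417076_at), a lipid binding protein of spermatids and the sperm head, had 108, 92.5, 100.2, 107 and 98.7 on KO 6 to KO 10, against 995, 691, 502, 331 and 269 on WT 1 to WT 5. The KO arrays lay close together, with the highest 1.17 times the lowest, whereas the highest WT array was 3.70 times the lowest. The median of this ratio over all genes was 1.28 in KO and 1.30 in WT. Fabp9 was 4.41-fold lower in KO (log2 change -2.14, SE 0.28, adjusted p = 1.3e-04), and the log2 change lay between -2.35 and -1.90 when 1 array was left out. Its other probe set was below the 40th percentile on all 10 arrays, with 7.73 to 9.52 in KO and 11.3 to 18.2 in WT, and was not tested. Fabp12 (1431788_at), which stands beside Fabp4 on the chromosome and is known from the testis and retina of rodents, had 35.9, 46.9, 43.6, 40.2 and 42.7 in KO, against 127, 122, 96.0, 81.2 and 72.4 in WT. It was 1.97-fold lower in KO (log2 change -0.98, SE 0.13, adjusted p = 1.5e-04). The KO signals lay near the array median, where a signal is hard to tell from background. With an offset of 1 in place of 16 the log2 change of Fabp12 was -1.21, and with 64 it was -0.62. RefSeq places the long non-coding RNA A930014E01Rik across 1 end of Fabp12, and which of them the probe set reads was not tested.

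Other spermatid genes were mostly too low to test. Of 12 listed genes, 5 passed the signal filter, of which 2 were lower and 3 did not pass, with a median log2 change of -0.005. Ldhc, the lactate dehydrogenase of male germ cells, averaged 74.6 ± 7.501 in KO and 98.2 ± 10.7 in WT cells (log2 change -0.33, adjusted p = 0.0112). Acrv1, an acrosomal protein, changed by -0.24 (adjusted p = 0.0442), which 7 of the 10 fits without 1 array did not call. Nor was Acrv1 called without WT 1 and KO 6 (adjusted p = 0.0717). The protamine genes Prm1 and Prm2 had log2 changes of 0.20 and -0.005, which did not pass. No spermatid gene tested had a fall as large as that of Fabp9.

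Fabp7, a fatty acid carrier of radial glia and astrocytes, and Fabp3, one of heart and skeletal muscle, were also lower. Fabp7 (1450779_at) had 136, 165, 131, 145 and 155 in KO, against 323, 329.6, 312, 239 and 276 in WT. It was 1.91-fold lower in KO (log2 change -0.94, SE 0.09, adjusted p = 2.0e-05), with a clear gap between the groups. Fabp3 (1416023_at) had 295, 277, 272, 283 and 239 in KO, against 343, 397, 375, 349 and 414 in WT. The fall was the smallest of the 6, 1.36-fold (log2 change -0.44, SE 0.07, adjusted p = 9.0e-04). A second probe set of Fabp3 had 24.9 to 29.1 in KO and 21.9 to 27.2 in WT, near the 40th percentile of the arrays, and a log2 change of 0.09, so the probe sets disagree in direction. The mean of both gave -0.17 (adjusted p = 0.0357). RefSeq lists a processed copy, Fabp3-ps1, and sequence shared with it could add to the signal.

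The promoter window of Fabp7 is shown beside those of the gut genes because Fabp7 fell as well and is known from another organ. It lies at chr10:57784673-57784972 (plus strand).
Fabp7: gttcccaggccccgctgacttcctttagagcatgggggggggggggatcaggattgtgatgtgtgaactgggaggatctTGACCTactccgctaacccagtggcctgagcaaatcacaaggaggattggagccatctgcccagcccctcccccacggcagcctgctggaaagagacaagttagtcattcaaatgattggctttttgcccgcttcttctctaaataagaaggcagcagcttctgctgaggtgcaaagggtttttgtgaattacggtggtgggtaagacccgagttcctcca
It held AGGTCA once, on the opposite strand at 171 bases before the start, and none of the other 3 motifs. The window of Fabp3, which also fell and is known from another organ, held no match to any of the motifs and is not shown.

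Most other glial and heart genes tested did not pass. The same held for most of all genes, of which 16.2% were lower and 13.0% higher. Of 11 glial genes 7 were tested, of which 2 were lower, 1 higher and 4 not past the threshold, with a median log2 change of -0.13. Aldh1l1, a folate enzyme of astrocytes, averaged 74.8 ± 8.65 in KO and 112 ± 18.004 in WT cells (log2 change -0.48, adjusted p = 0.0060). Aqp4, the astrocyte water channel, went the other way with 298 ± 81.4 in KO and 105 ± 29.1 in WT cells (log2 change 1.37, adjusted p = 1.2e-04). S100b changed by -0.19 (adjusted p = 0.0292), which 6 of the 10 fits without 1 array did not call. Nor was S100b called without WT 1 and KO 6 (adjusted p = 0.0731). Of 13 heart genes 12 were tested, of which 3 were lower, 1 higher and 8 not past the threshold, with a median of -0.28. Nppa, the atrial natriuretic peptide, averaged 115 ± 39.2 in KO and 276 ± 23.3 in WT cells (log2 change -1.22, adjusted p = 6.3e-04). Actc1, cardiac actin, had a log2 change of -0.61, and Myl2, the ventricular light chain, one of -0.45. The call of Myl7, the atrial light chain, with a log2 change of 0.39, was lost in 5 of the 10 fits without 1 array. It was also lost without WT 1 and KO 6 (adjusted p = 0.0762).

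**Figure D2:**
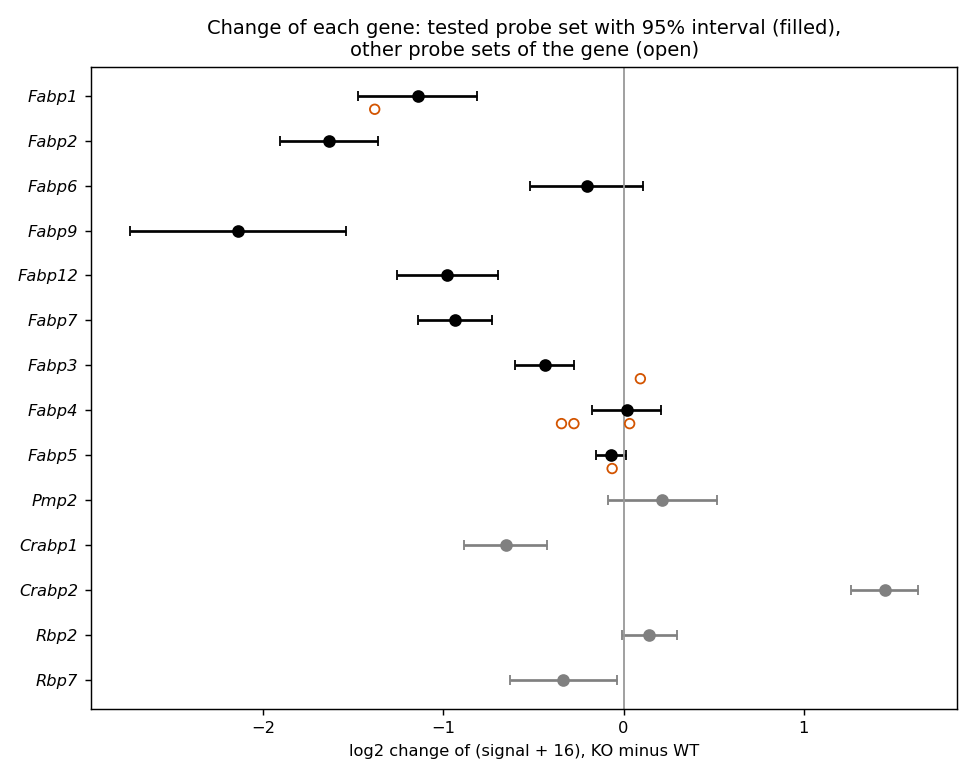
Log2 change of (signal + 16), KO minus WT (x axis), of the 9 Fabp genes (black) and 5 related lipid-binding genes (grey), with 95% intervals. Open circles are further probe sets of the same gene above the signal filter, which lie near the tested one for Fabp1 and Fabp5 and on the other side of 0 for Fabp3. Those of Fabp4 lie on both sides of 0, at 0.03, -0.28 and -0.34.

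The members known from adipocytes and epidermis showed no difference that passed. Fabp4 (1417023_a_at), the adipocyte form, which macrophages and capillary endothelium also express, had 8908, 7855, 9079, 7800.0 and 7359 in KO, against 9709, 8633, 7375, 7162 and 7763 in WT. The log2 change was 0.02, with a 95% interval from -0.17 to 0.21 (adjusted p = 0.91). A second probe set gave 0.03, and the dimmest pair gave -0.28 and -0.34, with KO 6 lowest in both. Fabp5 (1416021_a_at), the epidermal form, had 15859, 15716, 16364, 16232 and 16269 in KO, against 18076, 17119, 16036, 16434 and 16799 in WT. The log2 change was -0.07, with a 95% interval from -0.15 to 0.02 (adjusted p = 0.21), and the second probe set gave -0.06. These intervals, of the tested probe sets, lie within 0.21 of 0 on the log2 scale. On their tested probe sets the 6 members that fell had intervals ending at -0.28 or lower. The contrast does not extend to the dimmest Fabp4 pair or to the second Fabp3 probe set, with its log2 change of 0.09. RefSeq lists a Fabp5 pseudogene, Fabp5l2, whose transcripts the probes may also read.

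None of the adipocyte markers passed. Of 11 listed genes 6 were tested, with a median log2 change of -0.08. Lpl, lipoprotein lipase, averaged 880 ± 141 in KO and 675 ± 239 in WT cells (log2 change 0.44, adjusted p = 0.16), and Adipoq, adiponectin, 452 ± 117 in KO and 405 ± 47.7 in WT cells (log2 change 0.13, adjusted p = 0.58). The fat hormone gene Lep was below the filter. A call in this list appeared without WT 1, without KO 6, without both, with the Xist block and with arrays paired by number, and 2 with array weights. Genes of the epidermis, where Fabp5 is best known, moved both ways. The 11 keratinocyte genes held 7 higher and 2 lower ones, with a median of 0.62. Scel, the cornified envelope protein sciellin, had the largest rise and Krt10, a suprabasal keratin, the largest fall, with log2 changes of 2.62 and -2.47. The envelope precursor Sprr1a had 1.51 and suprabasin, Sbsn, 1.53.

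The sort for CD45-, EpCAM+ cells should remove macrophages and thymocytes, which carry CD45, and endothelium, which lacks EpCAM. Signals of their markers were nevertheless measured, and those of endothelium and macrophages changed in part between the genotypes. Of 9 endothelial genes tested 6 were higher and 1 lower, and their summed signal was 860.4 to 1149 in KO and 574 to 983 in WT. The log2 changes of Egfl7, Emcn and Flt1 were 0.81, 0.60 and -0.47. Emcn averaged 17.3 in WT, below the 40th percentile of the WT arrays (21.8 to 22.1). Pecam1 averaged 43.1 ± 4.25 in KO and 23.0 ± 8.70 in WT cells, Tie1 was below the filter, and the call of Cldn5 was lost in 7 of the 10 fits without 1 array. Without WT 1 and KO 6 Cldn5 was called (adjusted p = 0.0037). Of 10 macrophage genes 5 were lower and 3 higher, with summed signals of 4875 to 6298 in KO and 6772 to 7342 in WT, most of it from Lyz2. Mpeg1 had a log2 change of 2.62, Cybb one of -1.21, Csf1r one of -0.52 and Lyz2 one of -0.43. None of 8 thymocyte genes passed, with sums of 557 to 1241 in KO and 913 to 1171 in WT, and adipocyte sums were 1601 to 2385 in KO and 1342 to 2018 in WT. The part of these cells in the levels of Fabp4 or Fabp5 was not tested. The epithelial marker Epcam averaged 7695 ± 261 in KO and 7344 ± 232 in WT cells, and Cd80, on which the cells were sorted, 717 ± 102 in KO and 812 ± 139 in WT cells. Of the 9 mTEC genes, Tnfrsf11a, Cldn3, Krt5 and Cldn4 were higher, with log2 changes of 0.76, 0.65, 0.71 and 0.53, and 2 were lower. Aire, the regulator that drives many organ-typical genes in mTECs, averaged 6504 ± 1199 in KO and 8791 ± 1156 in WT cells (log2 change -0.45, adjusted p = 0.0282). The groups overlapped, and 3 of the 10 fits without 1 array did not call Aire. Without WT 1 and KO 6 its log2 change was -0.39 (adjusted p = 2.0e-04). Krt14 was not called in 7 of the 10 fits without 1 array, but was called without WT 1 and KO 6 (adjusted p = 0.0034). The part of Aire in the falls of the members was not tested.

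The family's members on chromosome 3 did not move together. In RefSeq (GRCm38.p6) the order of protein-coding genes is Fabp5, Pmp2, Fabp9, Fabp4, Fabp12, Impa1, Slc10a5, Zfand1, Chmp4c and Snx16, and Slc10a5 had no probe set of its own here. Fabp9 and Fabp12, which flank Fabp4, had log2 changes of -2.14 and -0.98, whereas Fabp4 between them had 0.02. Pmp2, the myelin P2 protein and itself a fatty acid binding protein, is the next gene to Fabp9 on the other side. It had 424, 446, 557, 422 and 379 in KO, against 462, 454, 402, 323 and 283 in WT, which overlapped (log2 change 0.22, 95% interval from -0.08 to 0.52, adjusted p = 0.27). Past the cluster, Impa1, Zfand1 and Chmp4c had log2 changes of -0.09, -0.05 and 0.09, none of which passed. Snx16, a sorting nexin, was higher by 0.27 on the log2 scale (adjusted p = 0.0419), a call lost in 6 of the 10 fits without 1 array. Without WT 1 and KO 6 this call held (adjusted p = 0.0073). Fabp2, the other member on this chromosome, lies far from this group.

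**Figure D3:**
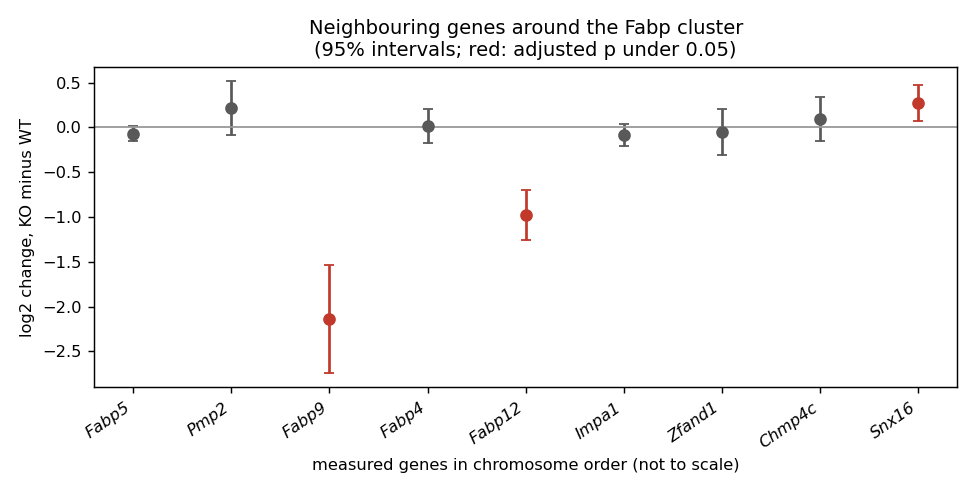
Log2 change, KO minus WT, with 95% intervals (y axis), of the measured genes around the Fabp cluster in their chromosome order (x axis, spacing not to scale). Fabp9 at -2.14 and Fabp12 at -0.98 stand on either side of Fabp4 at 0.02.

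The cellular retinoid carriers, which share the fold of the family, divided. Crabp2, which delivers retinoic acid to its nuclear receptor, had 1015 to 1275 in KO and 341 to 447 in WT, with every KO array above every WT array, as in 10.1% of all genes. It was 2.73-fold higher in KO (log2 change 1.45, SE 0.09, adjusted p = 3.6e-07). Crabp1, the other retinoic acid binding protein, had 391 to 521 in KO and 624 to 909 in WT and was 1.57-fold lower in KO (log2 change -0.65, SE 0.11, adjusted p = 6.5e-04). Rbp7, a retinol carrier, changed by -0.33 (adjusted p = 0.087) and Rbp2, the intestinal retinol carrier, one of 0.14 (adjusted p = 0.15). Rbp2 was above the 40th percentile on only 6 of 10 arrays. Together with Pmp2, 1 of the 5 relatives tested was thus lower, 1 higher and 3 did not pass.

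Genes that bring fatty acids into the cell or burn them changed in both directions. Of those that respond to fatty acids 2 were lower and none was higher. Over all genes 16.2% were lower and 13.0% higher. Of 10 uptake and activation genes tested from 14 listed, 3 were higher and 2 lower, with a median log2 change of 0.05. Cd36, a fatty acid translocase that endothelium and macrophages express too, averaged 450.4 ± 178 in KO and 167 ± 79.9 in WT cells (log2 change 1.37, adjusted p = 0.0031). Acsl4 and the transporter gene Slc27a4 had log2 changes of 0.53 and 0.39, while the acyl-CoA synthetase genes Acsbg1 and Acsl6 had -0.84 and -0.60, all past the threshold. Of 14 oxidation genes tested from 17 listed, 4 were lower, 2 higher and 8 not past the threshold, with a median of -0.12. The peroxisomal thiolase gene Acaa1b averaged 326 ± 47.6 in KO and 612 ± 60.9 in WT cells (log2 change -0.88, adjusted p = 6.3e-05), and Cpt2, the inner carnitine transferase of mitochondria, had -0.48. The mitochondrial genes Acadl and Acaa2 had 0.51 and 0.78, both past the threshold. Of 8 genes of PPAR and RXR receptors and their coactivators, 2 were lower and none was higher, with a median of -0.06. The lower ones were the coactivator gene Ppargc1b (-0.64, adjusted p = 0.0020) and the receptor gene Rxra (-0.25, adjusted p = 0.0268). The call of Rxra was lost in 5 of the 10 fits without 1 array, but held without WT 1 and KO 6 (adjusted p = 0.0056). Ppara, Ppard and Pparg, the fatty acid receptors themselves, had log2 changes of 0.03, -0.01 and 0.08, none of which passed. The signal of Ppara averaged 23.5 in KO and 22.8 in WT, near the 40th percentile of the arrays (21.55 to 22.14).

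**Figure D4:**
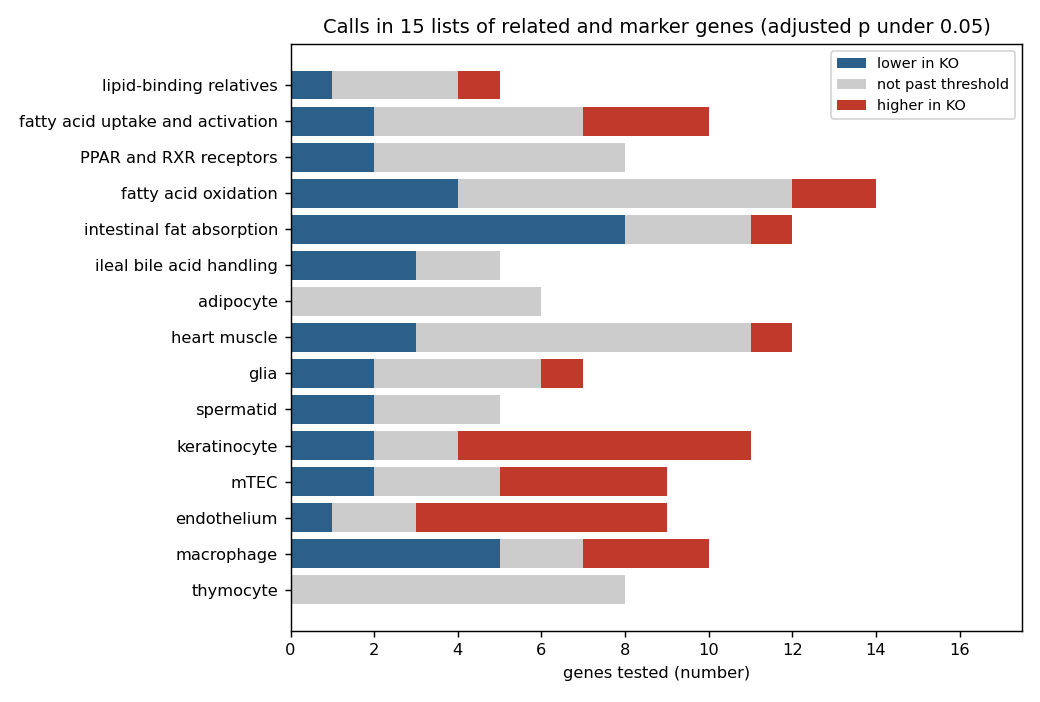
Number of tested genes (x axis) that were lower in KO (blue), not past the threshold (grey) or higher in KO (red) in 15 lists of related and marker genes (y axis). The fat absorption list holds 8 lower genes of 12, and the adipocyte and thymocyte lists hold no call.

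Within WT the members tended to be high on the same arrays. WT 1 had the highest WT signal in 7 of the 9 members, and WT 1 and WT 2 were the highest pair in 7, beside 19.9% and 17.2% of all genes. The exceptions to the first were Fabp3, for which WT 1 was the lowest WT array, and Fabp7, for which WT 2 was highest. Fabp2, Fabp9 and Fabp12 put all 5 WT arrays in one and the same order, WT 1 above WT 2, WT 3, WT 4 and WT 5, as 2.29% of all genes did. The relative Pmp2, which did not pass between the genotypes, and the second probe set of Fabp1 had this order too. The 18S rRNA signal was also highest on WT 1, but WT 4 came second for it, with 1362 against 1159 on WT 2. Summed markers of several cell types also set WT 1 and WT 2 apart from the other WT arrays. The mTEC sum was lowest there, with 42520 and 44720 against 47940 to 49270. The endothelial sum was highest there, with 983 and 783 against 574 to 605, and so was the thymocyte sum, with 1162 and 1171 against 913 to 964. The adipocyte sum, 2018, 1985, 1773, 1715 and 1342 on WT 1 to WT 5, ran in the order of Fabp2, Fabp9 and Fabp12, whereas the macrophage sum, 6838 and 7021 against 6772 to 7342, did not separate them. The sums are of linear signals, so single genes can carry their spread. In WT, Lpl had the largest SD of the adipocyte genes (239, against 47.7 for Adipoq) and Aire that of the mTEC genes (1156). The part of these cell types in the spread of the members was not tested. In KO the arrays showed no such order, with the highest array 1.30 to 1.31 times the lowest for Fabp1, Fabp2 and Fabp12.

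**Figure D5:**
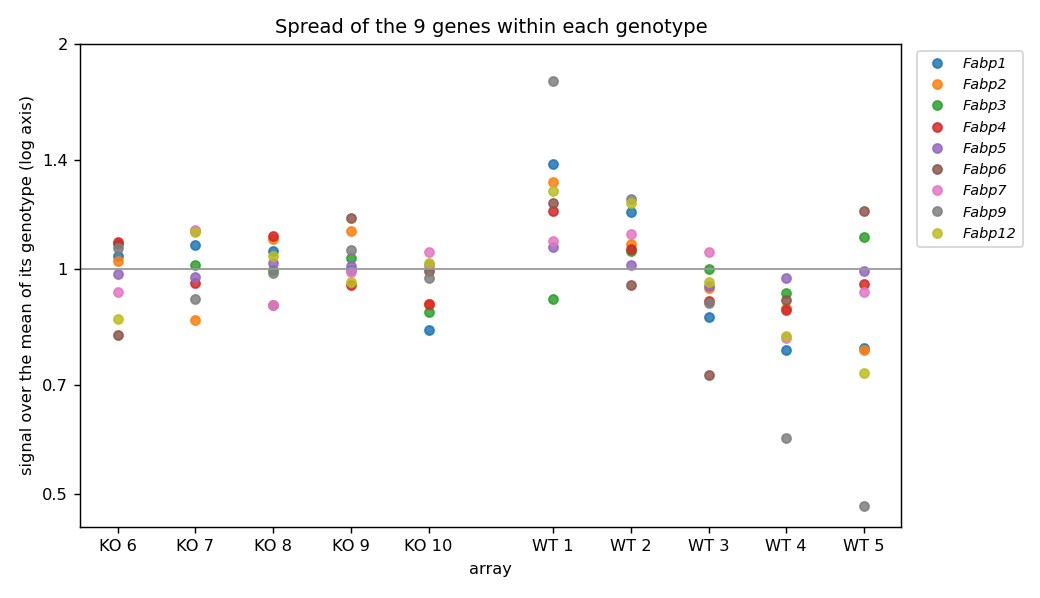
Signal of each of the 9 genes on each array divided by the mean of its own genotype (y axis, log scale), with KO arrays left and WT arrays right. Fabp9 (grey) spreads widest among WT arrays, and WT 1 carries the highest WT point for 7 of the 9 genes.

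The genes most like each member in their spread within genotypes were sought among all tested genes, by Pearson's r of the deviations of log2 values from the genotype means over 10 arrays. These are the highest values among 14087 genes and are given as descriptions. Without WT 1 and WT 2 they lay between 0.777 and 0.959. For Fabp9 they were Ccdc71l (r = 0.971), Nt5c3 (0.968) and Tmem126a (0.965), and without those arrays 0.852, 0.867 and 0.805. None of those 3 genes passed between the genotypes, with log2 changes of -0.27, -0.02 and -0.01. Fabp2 was most like Glipr1 (0.978), Katna1 (0.958) and the transcription factor gene Sox2 (0.936), of which Sox2 was lower in KO (log2 change -0.50, adjusted p = 1.6e-04) and the others did not pass. Fabp1 was most like the sulfotransferase gene Sult1b1 (0.974), S100a8 (0.962) and the chemokine gene Ccl20 (0.960). Fabp3 was most like Dmbt1 (0.958), Rspo1 (0.952) and the claudin gene Cldn10 (0.940), Fabp7 like Cybrd1 (0.942), Abhd10 (0.914) and Cenpw (0.913), and Fabp12 like Mlx (0.956), Pigo (0.953) and Kmt5a (0.950). Among these genes, S100a8, Cldn10, Cybrd1 and Abhd10 were higher in KO, opposite to their members, with log2 changes of 0.57, 0.43, 0.40 and 0.31. Their adjusted p were 0.0067, 0.0050, 0.0469 and 0.0473, so Cybrd1 and Abhd10 only just passed. Dmbt1 and Rspo1 were lower, with -0.59 and -0.31, and the rest did not pass.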

How the data were processed

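Expression was measured on 10 Affymetrix arrays, 5 Fezf2 KO and 5 WT, grouped by their titles. The deposited values are linear signal intensities per probe set. The submitters' processing notes name MAS5 and give no version. Its scaling and background settings and a genome build are not stated there, and no detection calls entered the fits. Of 45101 probe sets 34958 had 1 gene symbol in the platform annotation, updated by Entrez identifier to RefSeq (GRCm38.p6). Probe sets above the 40th percentile of the array on at least 5 of 10 arrays were kept (23581), and the one with the highest mean represented each of 14087 genes. Signals were fitted as log2(signal + 16), KO minus WT, by lmFit and eBayes (trend and robust options) of limma 3.58.1 under R 4.3.3, with Benjamini-Hochberg adjustment over all genes and a threshold of 0.05. The procedure was tested on simulated data with independent normal noise for each gene, which hold no deviation shared between genes on an array. Group levels are means of deposited intensities ± SD over 5 arrays. No array duplicated another (highest correlation 0.997). For arrays, their number limits the precision.

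The members and the 15 gene lists were chosen with earlier results of these data known. Named genes were the members, Fezf2, the relatives, the neighbours of the cluster, up to 4 genes per list with the smallest adjusted p past the threshold, and the 3 genes most like each member that passed. List genes outside this rule were named after their values were seen. Genes of a list without a probe set of their own were not analysed here. Alternatives were offsets, normalization, filters, probe set choice, variance model, array weights, a stricter threshold, arrays left out, and WT 1 with KO 6 or Xist signal as a block. A poly-A covariate and pairs by place in the numbering were added after seeing the data.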

Additional observations from a re-analysis of the deposited data

Results flagged for a closer look

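In 52 groups of 5 arrays (each probe set of the members, and the tested probe set of Fezf2 and of each relative and neighbour, by genotype), 3 held 1 array that stood off from the other 4 by Dixon's criterion, and chance flags about 1 group in 20. Fabp1 was 238 on KO 10, while the other 4 KO arrays had 286 to 309. Rbp2 was 32.4 on KO 6, above the 22.3 to 23.2 of the other KO arrays. Rbp7 was 413 on WT 5, above the 227 to 269 of the other WT arrays.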

How the results depend on the processing

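The 6 lower members passed, and Fabp4, Fabp5 and Fabp6 did not, in all 26 alternatives run. The log2 change lay between -2.35 and -1.78 for Fabp9, -1.73 and -1.39 for Fabp2, -1.38 and -0.96 for Fabp1, -1.01 and -0.77 for Fabp7, -1.21 and -0.62 for Fabp12, and -0.50 and -0.17 for Fabp3. Fabp6 lay between -0.31 and -0.06 and Fabp5 between -0.10 and -0.04. Fabp4 changed sign with quantile normalization (-0.005), the mean of probe sets (-0.142), probe sets without suffix (-0.275) and the Xist block (-0.02), and lay between -0.026 and 0.083 without 1 array. Over all genes, 4119 were called, 2281 lower and 1838 higher, and 2473, 1313 and 1160 at an adjusted p under 0.01. Without 1 array the counts were 3427 to 4207, 1857 to 2413 and 1514 to 1872. Of the 66 list genes called, counts lay between 48 and 83. Spermatid calls were 0 to 3 against 2, and calls among receptors and coactivators 1 to 3 against 2. The titles number the KO and WT arrays apart and give no pairs. Poly-A spike-ins ranked KO 6, 9, 10, 8, 7 and WT 1, 4, 5, 3, 2 alike by place in the numbering, so 2 fits were added after seeing the data. With their level as a covariate 4464 genes were called, and with arrays paired by that place as a block 4415, with the 6 members in both. Deviations from the genotype means correlated at 0.316 for KO 6 and WT 1 and at -0.025 to 0.071 for the other pairs. Low signals without detection calls limit Fabp12, Rbp2, Acrv1, Prm2, S100b, Nr0b2, Ppara, Emcn and Pecam1.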
